A study of Mus musculus with 6 samples.

Results

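The 10 genes described here encode Krüppel-like factors (Klf2, Klf3, Klf4, Klf5, Klf6, Klf7, Klf9, Klf10, Klf12 and Klf13), chosen by symbol. Each had exactly 1 row among the 36699 gene rows of the table, and all 10 were among the 18537 rows that the authors' Cuffdiff comparison tested. The RNA came from mouse A2Lox.cre embryonic stem (ES) cells, a line with a doxycycline-responsive site for transgenes, collected on day 3 of embryoid body culture. All 6 libraries carried the Flag-Sp5 transgene by their titles. In 3 of them (replicates 2, 3 and 4) no doxycycline was given, and in the other 3 (replicates 1, 3 and 4) doxycycline was added on day 2 for 24 hours to switch on Flag-tagged Sp5, a zinc-finger factor related to the Klf proteins. The comparison addressed which genes Sp5 regulates. Effects of the drug and of the induced protein cannot be told apart, since a group with doxycycline but no transgene was not analysed here, and whether replicates were separate cultures is not stated.

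Krüppel-like factors bind GC-rich elements, the GC box and the CACCC box, through tandem zinc fingers at the end of the protein. Sp factors share this DNA-binding domain, so members of both families can meet at the same promoters. Outside the fingers the Klf proteins differ. Klf2, Klf4, Klf5, Klf6 and Klf7 belong to a subgroup with activation domains, Klf3 and Klf12 to a subgroup that recruits the corepressor CtBP, and Klf9, Klf10 and Klf13 to a subgroup that binds the corepressor Sin3. In ES cells Klf2, Klf4 and Klf5 are known to sustain the naive pluripotent state with overlapping functions.

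Part of the stretch that these genes share with Sp5 is shown first. It is the coding sequence of the third of the 3 tandem zinc fingers of the DNA-binding domain. A stretch of 243 bases coding for the 3 tandem fingers was found in a GENCODE vM21 transcript of every member and of Sp5, with no difference in length. The stretch for the third finger was 63 bases long (bases 1042 to 1104 of the Klf2 transcript and bases 1415 to 1477 of the Sp5 transcript). The sequences run 5′ to 3′, and capitals mark the 17 positions at which all 11 genes have the same base.
Klf2: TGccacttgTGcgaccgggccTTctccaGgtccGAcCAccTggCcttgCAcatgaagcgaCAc
Klf4: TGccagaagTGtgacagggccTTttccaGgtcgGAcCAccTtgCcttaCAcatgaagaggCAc
Klf6: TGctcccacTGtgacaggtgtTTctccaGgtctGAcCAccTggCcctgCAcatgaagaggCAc
Klf12: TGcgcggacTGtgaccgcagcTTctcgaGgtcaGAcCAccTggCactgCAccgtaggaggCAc
Klf9: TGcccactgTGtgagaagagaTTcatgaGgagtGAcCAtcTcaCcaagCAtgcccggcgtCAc
Sp5: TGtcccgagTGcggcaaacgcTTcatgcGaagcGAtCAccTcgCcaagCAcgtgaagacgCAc
Over the 243 bases, identity between pairs of members ran from 57.2% to 81.1% (median 67.9%, 45 pairs). Klf6 and Klf7 were the most alike at 81.1%, and Klf2 and Klf4, like Klf3 and Klf12, shared 78.2%. Identity with Sp5 ran from 55.1% (Klf7) to 70.4% (Klf13). Across whole transcripts, the longest identical run between 2 members was 26 bases (Klf6 and Klf7), and between a member and Sp5 it was 15 bases (Klf13).

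Each row of the table holds 1 value per group in FPKM, the number of fragments scaled to transcript length and library depth, so that levels of different genes can be set side by side. That value stands for all 3 libraries of its group and comes without an SD or n, values per library were not analysed here, and depth is unknown. A gene is said to have risen or fallen where its q-value (the p-value adjusted over all tested rows) was under 0.05 in the authors' deposited table. Intervals on fold changes are 95% intervals computed from the authors' deposited fold change and test statistic, taking the statistic as the log fold change divided by its standard error (SE). In bulk RNA, fewer cells of a type and less RNA per cell cannot be told apart.

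Of the 10 members, 5 rose and 1 fell in the authors' deposited table and the remaining 4 missed the threshold, so that 6 of 10 were called against 23.2% of all tested rows. In each direction the shares over all tested rows were 10.5% higher and 12.7% lower. Called rows were more frequent at the members' levels: among the 8049 tested rows with a higher group value between 1.16 and 20.7 FPKM, 29.3% were called, 13.6% higher and 15.8% lower. The rises were those of Klf2, Klf3, Klf9, Klf10 and Klf12, and the fall was that of Klf6. The members' median log2 fold change was 0.10, against -0.04 over the 12245 tested genes with 1 FPKM or more in the higher group and both values above 0. Over all 17 tested Klf genes the median was -0.08, and over the 7 outside the members it was -0.27. These 2 medians had no minimum level and take in Klf1, Klf14 and Klf17, at 0.231, 0.143 and 0.105 FPKM without doxycycline. The outside genes above 1 FPKM went both ways: Klf8 0.41, Klf15 0.40, Klf11 -0.14 and Klf16 -0.27. Whether the members' median holds for the rest of the Klf family at like levels is therefore not read from these medians. Only Klf2 changed by 1.5-fold or more, and the other 5 called members moved between 1.13-fold (Klf9) and 1.47-fold (Klf6).

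**Figure D1:**
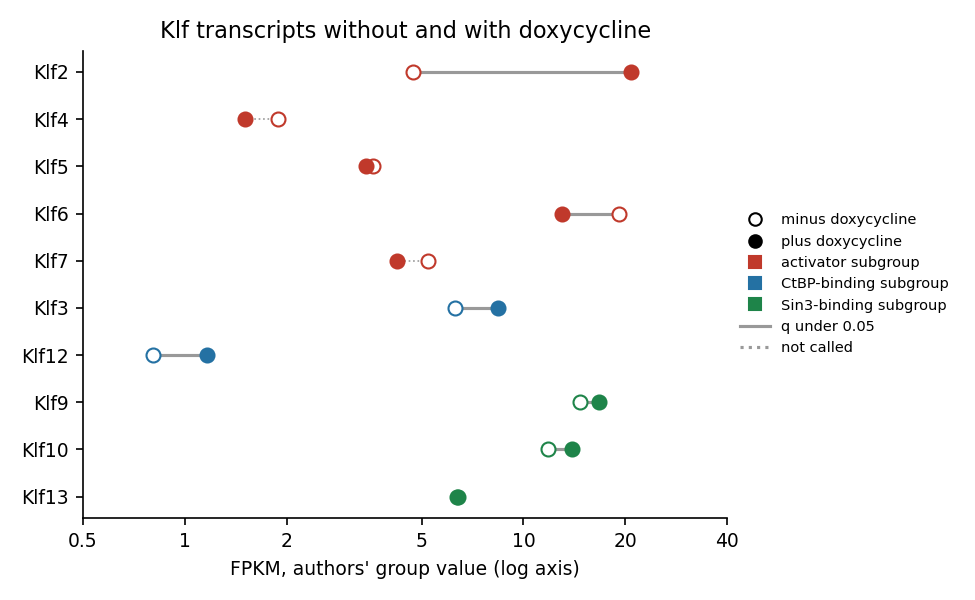
FPKM of each group (log axis) for the 10 Klf genes, with open points for cells without doxycycline, filled points for cells with it, colours for the subgroups and solid lines for q under 0.05. Klf2 moves from 4.72 to 20.7 FPKM. The largest move among the other genes is the 1.47-fold fall of Klf6 (19.1 to 13.0 FPKM), and the points of Klf13 coincide (6.36 and 6.43 FPKM).

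Klf2, an activator of the naive pluripotency network that is also known for its role in blood vessels and quiescent T cells, had 4.72 FPKM in untreated cells and 20.7 FPKM in treated cells. It was thus the seventh most abundant of the 10 transcripts in one group and the most abundant in the other. Its log2 fold change in the authors' deposited table was 2.13 (SE 0.10, 95% interval 1.95 to 2.32) with a q of 0 as printed there, a 4.39-fold rise with an interval of 3.85 to 5.01. Of the 12245 genes ranked, 91 had a larger fold change. Its row covers chromosome 8, positions 74842932 to 74845555 of mm9, and no other row shares that locus. Of 5 tested rows within 100 kb of it, Ap1m1, which encodes an adaptor subunit of vesicle coats and lies 61647 bases away, rose from 11.0 to 15.6 FPKM (q = 5.63e-07 in the authors' deposited table). The other 4, including Eps15l1 at 19344 bases (13.5 and 13.0 FPKM), were not called.

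Klf4, a factor of the same subgroup used in reprogramming to pluripotency, stood at 1.884 FPKM without doxycycline and 1.503 FPKM with it (chromosome 4, 55540013 to 55545347). Its log2 fold change of -0.33 (95% interval -0.58 to -0.07) had p = 0.0124 and q = 0.0527 in the authors' deposited table and was not called. When p-values were adjusted over rows at 1 FPKM or more alone, its q was 0.0433. Klf5, which acts beside Klf2 and Klf4 in ES cells, stood at 3.60 and 3.42 FPKM (chromosome 14, 99697910 to 99712624). Its interval on the log2 scale ran from -0.31 to 0.15 (q = 0.773 in the authors' deposited table), so a rise of more than 1.11-fold lies outside it. The interval of Klf2 did not overlap those of Klf4 and Klf5, and the difference between the genes was not itself tested. The summed FPKM of Klf2, Klf4 and Klf5 went from 10.2 to 25.6, while that of Klf4 and Klf5 alone went from 5.48 to 4.92. The ratio of Klf2 to Klf4 transcripts went from 2.50 to 13.8. These sums and ratios carry no error of their own.

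Klf6, a broadly expressed activator known as a tumour suppressor, was the most abundant member without doxycycline. It fell from 19.1 to 13.0 FPKM, to the fourth place with doxycycline (chromosome 13, 5860735 to 5869639). The fall was 1.47-fold (95% interval 1.34 to 1.61; q printed as 0 in the authors' deposited table), and no other row lies within 100 kb. Klf7, the gene nearest to Klf6 in its finger sequence and known in neuronal development, stood at 5.24 and 4.23 FPKM and was not called (q = 0.277 in the authors' deposited table). Its SE of 0.19 on the log2 scale was the widest of the 10. Its locus (chromosome 1, 64076021 to 64168856) is shared with 2 other rows. One of these, the predicted gene Gm17427, fell from 3.76 to 2.68 FPKM (q = 0.000903 in the authors' deposited table). The protocol mentions no strand marking, so reads of Klf7 and Gm17427 may not be separable, and the value of each is uncertain.

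Both CtBP-binding members rose by small amounts. Klf3, a repressor known in blood and fat cells, went from 6.29 to 8.43 FPKM (chromosome 5, 65194628 to 65221368). That was a 1.34-fold rise with a 95% interval of 1.16 to 1.55 (q = 0.000637 in the authors' deposited table). Klf12, first described as a repressor of the AP-2 alpha gene, was the least abundant member in both groups, with 0.803 FPKM in untreated and 1.16 FPKM in treated cells. Its row spans 279147 bases (chromosome 14, 100269869 to 100549015). It rose 1.45-fold, with a 95% interval of 1.23 to 1.70 (q = 0.000119 in the authors' deposited table). With 1 FPKM added to both groups its log2 fold change went from 0.53 to 0.26. Klf8, the remaining gene of this subgroup and not one of the 10, rose from 2.43 to 3.22 FPKM (q = 0.00152 in the authors' deposited table), so that 3 of 3 genes of the subgroup rose, against 10.5% of all tested rows and 13.6% of those at the members' levels. With 3 genes, chosen with results known, nothing particular to the subgroup is read from that count.

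The Sin3-binding members were among the more abundant, and their called changes were the smallest of the 6. Klf9, a target of glucocorticoid and thyroid hormone, went from 14.7 to 16.7 FPKM (chromosome 19, 23215716 to 23241401). Its 1.13-fold rise had a 95% interval of 1.03 to 1.24 and was the called change nearest to the threshold (q = 0.0402 in the authors' deposited table). The microRNA gene Mir1192, listed at 0 in both groups, shares its locus. Klf10, an early response gene of TGF-beta, went from 11.8 to 13.9 FPKM (chromosome 15, 38221219 to 38230464), a 1.18-fold rise with a 95% interval of 1.06 to 1.32 (q = 0.0137 in the authors' deposited table). Klf13, a regulator of cytokine genes in lymphocytes, stood at 6.36 and 6.43 FPKM (chromosome 7, 71031237 to 71083801). Its interval ran from 0.905-fold to 1.13-fold (q = 0.965 in the authors' deposited table). Of the other genes of this subgroup, none of them among the 10, Klf16 fell from 14.47 to 12.03 FPKM (q = 0.00194 in the authors' deposited table), and Klf11 (4.02 and 3.64 FPKM) and Klf14 (0.143 and 0.115 FPKM) were not called. Over its 6 genes the subgroup thus had 2 rises, 1 fall and 3 genes not called, against 10.5% higher and 12.7% lower over all tested rows. The genes were chosen with results known, and nothing particular to the subgroup is read from these counts.

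**Figure D2:**
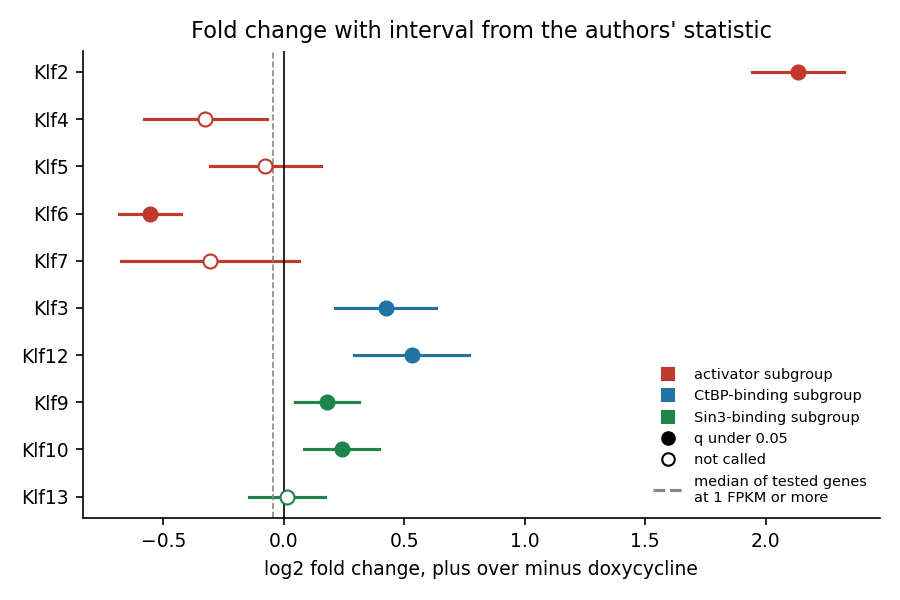
Log2 fold change of each Klf gene (points, filled where q is under 0.05) with the 95% interval from the authors' statistic (lines) and the median of tested genes at 1 FPKM or more (dashed line, -0.04). The interval of Klf2 (1.95 to 2.32) lies above those of all 9 other genes, the highest of which reaches 0.77 (Klf12).

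In order of level without doxycycline the members were Klf6, Klf9, Klf10, Klf13, Klf3, Klf7, Klf2, Klf5, Klf4 and Klf12. With doxycycline the order was Klf2, Klf9, Klf10, Klf6, Klf3, Klf13, Klf7, Klf5, Klf4 and Klf12. Whether neighbours in these orders differ beyond the spread of libraries cannot be given, because the group values carry none. The summed level of the 10 transcripts went from 74.5 to 89.5 FPKM, 1.20-fold. Without Klf2 it went from 69.8 to 68.8 FPKM, 0.986-fold, so the gain of the sum was that of Klf2. Klf2 made up 6.33% of the sum without doxycycline and 23.1% with it, whereas Klf6 went from 25.6% to 14.5%.

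**Figure D3:**
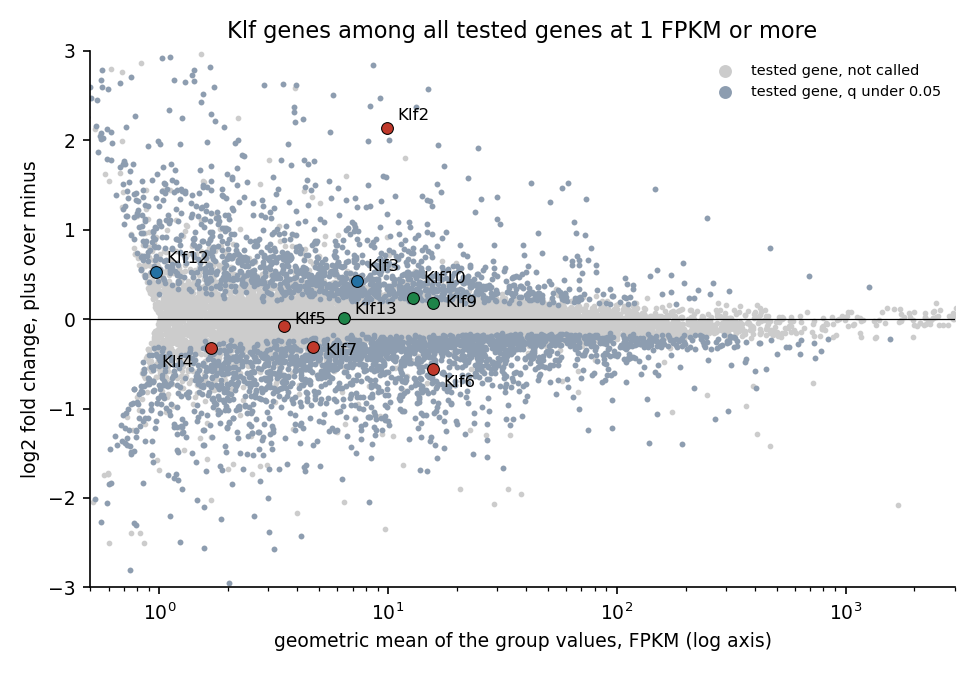
Log2 fold change against the geometric mean of the group values (log axis) for 12245 tested genes at 1 FPKM or more (small points, 69 of them outside the axes), with the 10 Klf genes named. Klf2 stands at the upper edge of the cloud, at the 99.2th percentile of fold change, and Klf6 at the 7.55th.

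The induced factor itself belongs to the same family of GC-box binders. Sp5 was at 0.769 FPKM in untreated cells, below every Klf member, and at 126 FPKM in treated cells, a value that holds transgene and endogenous transcripts together. With doxycycline, Sp5 was thus at 1.41 times the summed level of the 10 Klf genes, against 0.0103 times without. Over the 25 tested Sp and Klf genes, the 10 members made up 52.9% of the summed FPKM without doxycycline and 31.9% with it, and Sp5 0.545% and 45.1%. With Sp5 left out, the other 24 summed to 140 and 154 FPKM. Of the other Sp genes tested, none was called (7 of 7), where 23.2% of all tested rows were called. They include Sp3, an abundant GC-box factor (26.7 and 24.8 FPKM). They also include Sp6, Sp7, Sp8 and Sp9, which were low, Sp8 being the highest of these at 0.367 and 0.440 FPKM. Sp1 (18.4 and 14.7 FPKM) had status FAIL, was not tested and is not in these sums. Among the 7 Klf genes outside the 10, Klf8 and Klf15 (7.89 to 10.4 FPKM) rose in the authors' deposited table, Klf16 and Klf17 fell and the other 3 did neither. Over all tested rows 10.5% rose and 12.7% fell.

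GC boxes and CACCC boxes were looked for in the promoters of the members, because the induced factor and the members bind such elements. RefSeq promoter windows (build GRCm38.p6) were matched by symbol for 8 of the 10 genes, all but Klf5 and Klf10, and the 250 bases before the start site were searched. The words were GGGCGG for the GC box and CACCC for the CACCC box, on both strands (CCGCCC and GGGTG). The words can share bases with each other. A match is a description of letters, not evidence of binding. The window of Klf2 (chr8:72318812-72319061, + strand) is shown as that of the largest rise, the window of Klf6 (chr13:5861239-5861488, + strand) as that of the called fall, and the window of Klf3 (chr5:64803271-64803520, + strand), chosen after the matches were seen, as the one with the most GC boxes. The sequences run 5′ to 3′ and end at the base before the start site, with GC-box words in capitals.
Klf2: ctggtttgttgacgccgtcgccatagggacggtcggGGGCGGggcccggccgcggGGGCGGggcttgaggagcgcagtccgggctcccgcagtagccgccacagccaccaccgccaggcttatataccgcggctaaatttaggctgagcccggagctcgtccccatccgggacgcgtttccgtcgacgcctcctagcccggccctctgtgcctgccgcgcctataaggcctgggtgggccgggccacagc
Klf6: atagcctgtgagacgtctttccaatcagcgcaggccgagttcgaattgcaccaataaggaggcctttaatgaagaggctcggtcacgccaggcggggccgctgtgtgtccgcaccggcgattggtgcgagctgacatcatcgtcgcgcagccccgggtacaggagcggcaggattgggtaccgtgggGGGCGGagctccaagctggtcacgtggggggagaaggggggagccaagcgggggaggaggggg
Klf3: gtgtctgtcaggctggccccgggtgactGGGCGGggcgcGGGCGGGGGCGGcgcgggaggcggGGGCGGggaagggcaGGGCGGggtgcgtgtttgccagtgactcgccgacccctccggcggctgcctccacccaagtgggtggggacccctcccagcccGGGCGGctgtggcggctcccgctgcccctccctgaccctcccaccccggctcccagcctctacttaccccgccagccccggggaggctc
The Klf2 window held 2 GC boxes, 214 and 195 bases before the start, and 1 CACCC box 19 bases before it. The Klf6 window held 1 GC box at 63 bases, and the Klf3 window 6 GC boxes and 5 CACCC boxes.

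At least 1 GC box was present in 6 of the 8 windows and at least 1 CACCC box in 6 of 8. Among all 32851 promoter windows of this length the shares were 32.7% and 52.0%, and among the 10264 windows of genes tested at 1 FPKM or more they were 59.1% and 58.1%. Called and uncalled members both held GC boxes. Klf4, which was not called, held 4, Klf13, also not called, held 3, and Klf7 held 1. Klf9 and Klf12, which rose, held none and 1 CACCC box each. With 8 windows this is a listing and no test was made.

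**Figure D4:**
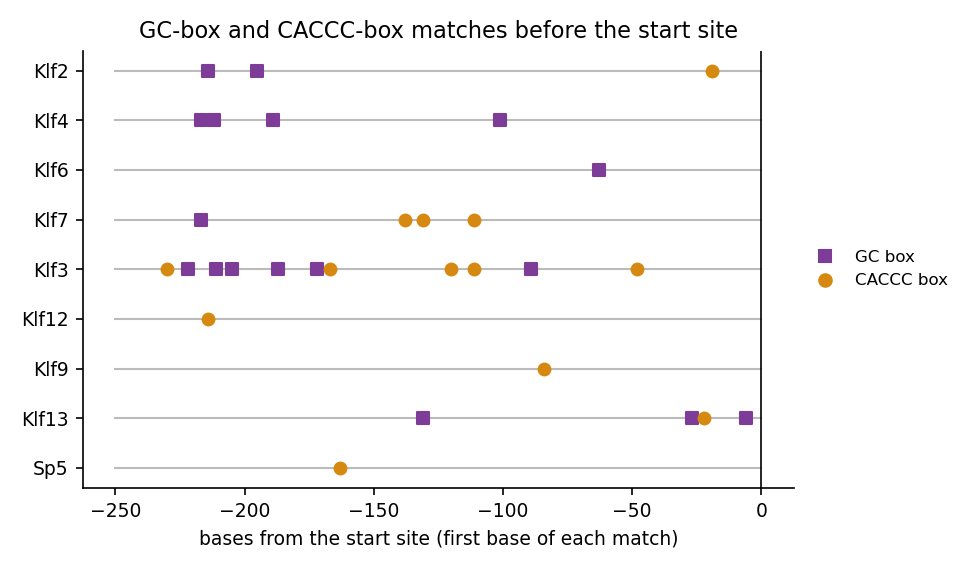
Positions of GC-box words (squares) and CACCC-box words (circles) in the 250 bases before the start site of 8 Klf genes and Sp5, in bases from the start. Klf3 carries the most GC boxes (6), and Klf9, Klf12 and Sp5 carry none.

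Genes that act with the Klf factors were grouped by their known roles, but the lists were chosen with earlier results of these data known. Their counts are descriptions, and nothing particular to a list is read from them. Of 17 tested partners of the naive network, 10 rose in the authors' deposited table, none fell and 7 were not called, against 10.5% higher and 12.7% lower over all tested rows. The list's median log2 fold change was 0.36, against -0.04 over tested genes at 1 FPKM or more. Nanog, which with Klf2 supports the naive state, rose from 46.0 to 117 FPKM, Nr5a2 from 0.497 to 1.98, Gbx2 from 0.283 to 1.03 and Tcl1 from 1.25 to 2.66 FPKM. Klf2, like these, rose. Klf4 and Klf5 were not called, nor were 7 of the partners, among them Sall4, Mycn and Sox2. Esrrb (3.44 and 5.58 FPKM) had status FAIL and was not tested. Utf1 and Lin28a, which fell, and Tdgf1, which rose, are ES cell markers outside this list and are given below.

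Inputs to Klf4 and Klf2 were mixed. Over all tested rows 10.5% rose and 12.7% fell, and each count in this paragraph is read against these shares. Stat3, the LIF-activated factor that induces Klf4, fell from 5.76 to 4.45 FPKM (q = 0.0488 in the authors' deposited table), and the kinase gene Jak2 fell from 1.68 to 1.23 FPKM. The receptor subunit gene Il6st rose from 3.60 to 7.66 FPKM, the feedback inhibitor Socs3 from 1.33 to 1.90 FPKM and Bcl3 from 0.705 to 4.24 FPKM. Over that list, 4 of 13 tested genes of LIF and Stat3 signalling rose and 2 fell in the authors' deposited table, with 7 not called. The pathway from the kinase Erk5 to Mef2 factors is a known inducer of Klf2. There 1 of 7 tested genes rose (Mef2c, under 0.1 FPKM in both groups), 1 fell (Mef2d, from 8.77 to 6.80 FPKM) and 5 were not called, including Mapk7, which encodes Erk5 (16.5 and 17.0 FPKM). Klf10 is induced by TGF-beta, and of 18 tested ligands, receptors and response genes 3 rose, 5 fell and 10 did neither in the authors' deposited table. The ligand gene Tgfb1 rose from 1.40 to 8.68 FPKM, and Smad3 (3.32 to 1.70 FPKM), Ski (18.3 to 10.7 FPKM) and the inhibitor Smad7 (7.02 to 4.32 FPKM) fell.

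Corepressor genes were called in 2 of 10 tested cases in the CtBP list and 1 of 14 in the Sin3 list, against 23.2% of all tested rows. Hdac1 and Hdac2, neither of them called, are counted in both lists. In the CtBP list 2 of 10 tested genes fell, Fhl3, whose product binds Klf3, from 10.9 to 6.57 FPKM and Zfp217 from 12.03 to 10.21 FPKM, while Ctbp1 (42.0 and 40.9 FPKM) was not called. In the Sin3 list 1 of 14 rose (Rbbp7, from 156 to 241 FPKM), and Sin3a (34.2 and 35.3 FPKM) and Sin3b (102 and 103 FPKM) were not called. Among acetyltransferases and ubiquitin ligases that act on Klf proteins, Smurf1, a ligase for Klf2, rose from 4.69 to 6.79 FPKM, Btrc fell from 5.78 to 4.77 FPKM, the coactivator Ep300 fell from 11.5 to 10.1 FPKM and the other 5 of 8 tested missed the threshold of the authors' deposited table. The medians of these 3 lists were -0.10, -0.03 and -0.09 on the log2 scale, against -0.04 over tested genes at 1 FPKM or more.

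**Figure D5:**
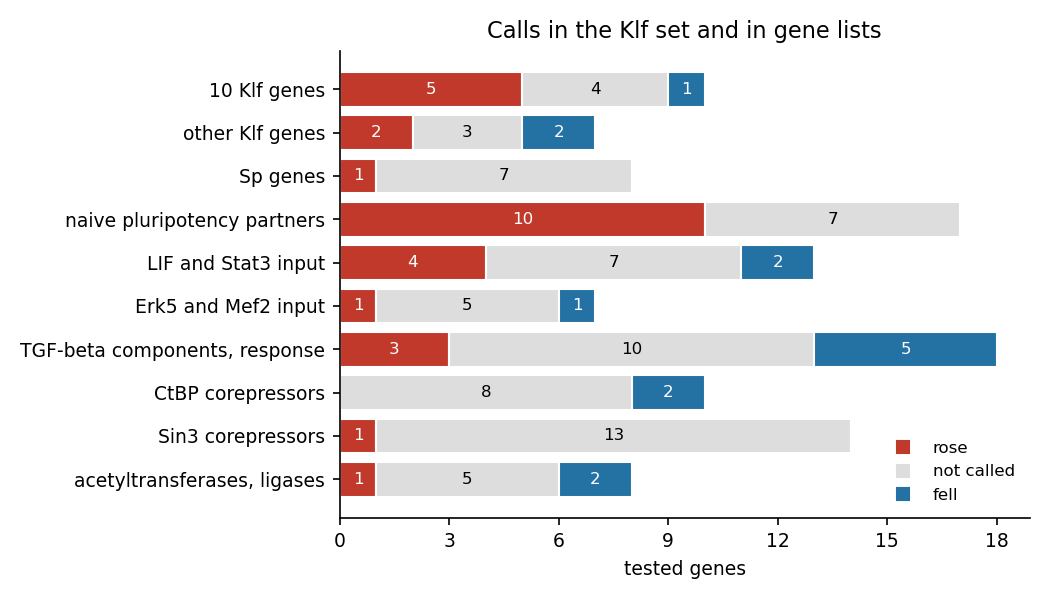
Number of tested genes (bar length) that rose, fell or missed the threshold (q under 0.05), for the 10 Klf genes and for the lists of related genes. In the naive pluripotency list 10 of 17 rose and none fell, whereas 13 of 14 genes of the Sin3 list were not called.

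Markers of the labelled cells and of others were read beside these results. Their counts stand against 10.5% higher and 12.7% lower over all tested rows, and no list was tested. Of the ES cell markers, Pou5f1 stood at 999.1 and 1058 FPKM and Sox2 at 60.8 and 60.6 FPKM, and neither was called, nor was Sall4. Utf1, an abundant ES cell marker, fell from 314 to 119 FPKM (2.64-fold) and Lin28a from 139 to 115 FPKM. Nanog rose as given above and Tdgf1 from 124 to 180 FPKM, so that 2 of 7 tested rose and 2 fell in the authors' deposited table. Dnmt3b had status HIDATA (listed at 0 without doxycycline, 273 FPKM with it) and was not tested. Klf2 is also a gene of endothelium: of 5 tested endothelial markers, Pecam1, which ES cells also express, and Esam rose, Cdh5 and Kdr fell and Tek did neither in the authors' deposited table. The summed level of that list went from 4.43 to 12.2 FPKM, of which Esam took 0.728 and 6.16 FPKM. The defining marker Cdh5 was at 0.181 and 0.0961 FPKM, and Emcn was at 0.00774 FPKM without doxycycline and listed at 0 with it. The cells had been grown on mouse fibroblast feeders, and of 9 tested fibroblast markers 1 rose and 3 fell (summed level 18.5 and 17.5 FPKM over the list). Visceral endoderm markers fell in 4 of 8 cases, with a summed level of 170 and 137 FPKM. Of keratinocyte and erythroid markers, 1 of 3 and 1 of 4 tested fell and none rose, at summed levels between 1.57 and 1.74 FPKM. The part of these cells in the Klf values was not tested.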

How the data were processed

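RNA of 6 libraries in 2 groups was analysed from 1 gene table. Per the labels' protocols, mRNA was captured with oligo-dT and libraries followed a TruSeq RNA protocol. The submitters' processing notes name Cufflinks 2.0.2, Cuffdiff, TopHat2 2.0.8, Picard and Bowtie, and the build mm9; for annotation and scaling, the sources used here give nothing. Per the file headers, the authors deposited 1 FPKM value per group, a log2 fold change, a test statistic (a score) and p-values and q-values. A limma fit was planned for values per library; with group values only, the authors' test was used. In 18284 tested rows with both groups above 0, the two-sided normal p of the statistic equalled the deposited p to within 2.84e-06, and SE was taken as log2 fold change over statistic. Fold changes have no pseudocount. Table starts were read as 0-based and written from 1. Adjustment was checked on simulated data. The SE formula was run there too, but it returns the simulated SE by construction. Whether the deposited statistic is the log fold change over its SE was therefore not tested. Python 3.11.15, numpy 2.4.6, pandas 2.3.3, scipy 1.17.1 and matplotlib 3.10.9 were used. All 10 members were named, and of each list up to 4 called genes with the largest fold change whose higher group value reached 1 FPKM, plus genes on which a member's description turns; Sall4, Mycn, Sox2, Utf1, Lin28a, Tdgf1, Klf11, Klf14, Klf17, Mef2c and markers were named after their values were seen. Members and lists were chosen with earlier results of these data known. Alternatives were other thresholds, minimum folds, levels, pseudocounts and centring.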

Additional observations from a re-analysis of the deposited data

How the results depend on the processing

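The share of all tested rows called was not computed for the other thresholds, minimum folds and adjustments below. The members' counts there cannot be set against it. At q under 0.01, 3 members rose (Klf2, Klf3 and Klf12) and 4 were called. With Bonferroni adjustment 2 were called, 1 higher (Klf2) and 1 lower (Klf6). With a minimum fold of 1.5 or of 2, 1 member was called, 1 rose (Klf2) and 0 fell. When p-values were adjusted again over the 12326 rows at 1 FPKM or more, 2 members fell, Klf4 joining Klf6 (q = 0.0433 in that adjustment); over rows at 5 FPKM or more, which leave out Klf4, Klf5 and Klf12, 5 members were called. Adding 1 FPKM to both groups lowered the log2 fold change of Klf2 to 1.93 and of Klf12 to 0.26. Of 30 member fold changes under a pseudocount of 0.1 or 1 FPKM or centring on the median, 28 moved by less than 1 SE and 0 reversed. Chosen after seeing the data, leaving out Klf7 and Klf9, whose loci other rows share, gave 5 called of 8. No paired analysis was possible because the table holds 1 value per group, and for that reason no replicate could be left out. Depth is unknown, so no counting interval can be given.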

Other observations

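The Klf genes outside the 10 included 3 at very low level. Klf17 was at 0.105 FPKM without doxycycline and 0.0344 FPKM with it and was called lower (q = 0.00697 in the authors' deposited table). Klf1, the erythroid Klf gene, was at 0.231 and 0.177 FPKM and Klf14 at 0.143 and 0.115 FPKM, and neither was called.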
